A study of Homo sapiens with 24 samples.

Results

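The 40 G2 and mitosis genes described here were listed by symbol from the cyclins and kinases of G2 phase and the proteins of the spindle, the kinetochore and cytokinesis. The list uses no measured value as a rule, but it was drawn up with earlier results of these data known. Each gene was read from its probe set with the highest mean. Of the 40, 38 had a probe set that names 1 gene, and all 38 passed the filter on dim genes, among 17339 genes tested of 22109 measured. BUB1B, a checkpoint kinase, and CENPA, the histone variant of centromeres, had only probe sets that name several genes and were given no value. Every measured gene reached the median of all values on the array (2.42 on the log2 scale) on each of the 24 arrays, except UBE2C, which did so on 23 and whose mean of 2.98 lies near that median.

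The arrays measured RNA of HAP1, an established near-haploid human cell line that descends from the chronic myelogenous leukemia line KBM-7. The parental line (PAR) was compared with S51A, which carries a serine-to-alanine change in the translation factor eIF2-alpha, and with lines lacking 1 of the 4 kinases of that serine, labelled HRI, GCN2, PKR and PERK. All were bought from a supplier, and each genotype is 1 line, so a genotype and any other difference of its line cannot be told apart. Cells of each line received no drug (9 arrays), lomustine, a DNA-alkylating and crosslinking drug, at 200 µM for 2 h (9 arrays), or the treatment titled SA100 (6 arrays). The treatment text describes NaAsO2 at 100 µM for 2 h, and SA100 is read as this arsenite treatment, although the agent field of those arrays names lomustine. In PAR, S51A and HRI the untreated and lomustine arms had 2 arrays each, lettered A and B, and each remaining pair of line and arm had 1. Nothing says that A and B were separate cultures, so the spread between them may be technical. The p-values within lines measure that spread (6 residual degrees of freedom). Those of the arm and line comparisons (16 degrees) also measure how the arms differ from line to line.

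Genes of this kind are switched on together late in the cell cycle. Cyclin B with CDK1 drives cells into mitosis, kinesins and spindle proteins align and part the chromosomes, the checkpoint holds anaphase back until kinetochores are attached, and the anaphase-promoting complex then destroys the cyclins. Their promoters are held by the MuvB complex, with B-MYB and FOXM1 as activating partners, at a cell cycle homology element of the form TTTGAA or TTCGAA close to the start of transcription, often with CCAAT boxes upstream. In a mixed culture, a lower value can mean fewer cells in G2 and mitosis or less RNA per cell, which bulk RNA cannot tell apart.

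Promoters were read from RefSeq (GRCh38.p14) for 35 of the 40 genes, as 46 windows of 300 bases around annotated starts, most of each window lying upstream. The motif TTTGAA, on either strand, was in 28 of the 46 windows (60.9%), against 15.2% of all 35116 promoter windows. TTCGAA was in 3 (6.5%, against 1.4% of all windows), and at least 1 of both elements was in 30 (65.2%, against 16.4%). CCAAT, on either strand, was in 33 (71.7%, against 34.6%). A list of S phase genes held CCAAT in 77.8% of its 27 windows and TTTGAA in 7.4%. A match is a description of the letters in the window. The 150 bases before the start are printed for CENPF, KIF18A, PRC1 and KIF20A, whose values are described below. They are also printed for CCNB1 and PLK1, regulators of mitotic entry, so that these elements can be seen. TTK and BIRC5, also described below, had no window. Capitals mark the motifs named above, on either strand (a CCAAT box on the opposite strand reads ATTGG). Each stretch is written along the gene's own strand, 5′ to 3′.
CENPF (chr1:214603045-214603194, plus strand): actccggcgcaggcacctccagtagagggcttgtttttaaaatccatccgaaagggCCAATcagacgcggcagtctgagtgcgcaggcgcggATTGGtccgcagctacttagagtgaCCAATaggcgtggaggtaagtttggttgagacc
KIF18A (chr11:28108157-28108306, minus strand): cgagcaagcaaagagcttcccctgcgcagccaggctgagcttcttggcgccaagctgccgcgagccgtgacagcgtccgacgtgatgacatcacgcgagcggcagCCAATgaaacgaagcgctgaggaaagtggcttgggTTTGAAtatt
PRC1 (chr15:90994536-90994685, minus strand): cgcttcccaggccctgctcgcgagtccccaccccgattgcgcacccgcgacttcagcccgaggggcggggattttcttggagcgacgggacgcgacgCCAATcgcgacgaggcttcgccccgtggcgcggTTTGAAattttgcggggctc
KIF20A (chr5:138178962-138179111, plus strand): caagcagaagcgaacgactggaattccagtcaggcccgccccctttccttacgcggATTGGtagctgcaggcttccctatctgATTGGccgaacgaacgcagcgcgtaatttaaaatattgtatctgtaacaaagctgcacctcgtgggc
PLK1 (chr16:23678739-23678888, plus strand): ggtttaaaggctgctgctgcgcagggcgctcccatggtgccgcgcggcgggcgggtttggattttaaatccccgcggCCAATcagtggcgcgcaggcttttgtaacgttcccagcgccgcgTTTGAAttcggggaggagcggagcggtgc
CCNB1 (chr5:69167000-69167149, plus strand): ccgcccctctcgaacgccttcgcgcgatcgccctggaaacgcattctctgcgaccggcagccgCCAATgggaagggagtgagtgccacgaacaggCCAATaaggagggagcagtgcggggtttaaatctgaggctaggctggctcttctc
KIF18A, PRC1 and PLK1 carry TTTGAA within the printed stretch, in KIF18A 10 bases before the start. In CENPF the same letters lie 41 bases after the start, outside the stretch shown. KIF20A and CCNB1 show only CCAAT boxes here.

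The treatment labels were set against other genes. EGR1 ran from 3.59 to 4.75 (log2) without drug, from 6.89 to 8.69 with lomustine and from 7.86 to 10.02 with SA100, and HMOX1, which arsenite is known to induce, from 4.27 to 4.89, from 4.92 to 6.11 and from 8.59 to 9.29. The transcripts of the changed genes themselves (EIF2AK1, EIF2AK2, EIF2AK3, EIF2AK4 and EIF2S1) overlapped between each gene's own line and the other lines, so they do not check the line labels. Of 9 measured blood markers, 6 epithelial and 6 fibroblast markers, 0 had a mean 2 or more log2 units above the median of all values. The array of S51A with lomustine lettered B stands apart: 8.72% of its probe sets lay over 1 log2 unit from the median of the other arrays.

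On that array most G2 and mitosis genes were also at their lowest. Each gene was set against its own mean over the 24 arrays, and the median of these deviations over the 38 genes was taken as the shared level of an array. It was -0.69 on S51A lomustine B, where 30 of the 38 genes had their lowest value of all 24 arrays, and where the median deviation of all genes was -0.19. The other 8 lomustine arrays had shared levels from -0.15 to 0.11. Without drug the shared level ran from -0.10 to 0.20 with a median of 0.10, with lomustine its median was -0.04, and with SA100 it ran from -0.12 to 0.21 with a median of 0.16. The arms overlap, and the PAR and S51A arrays were the lowest of the SA100 arm. Between lettered duplicates, the median absolute difference of the 38 genes was 0.13 and 0.31 in PAR (no drug and lomustine), 0.14 and 0.17 in HRI, and 0.26 and 0.53 in S51A.

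**Figure D1:**
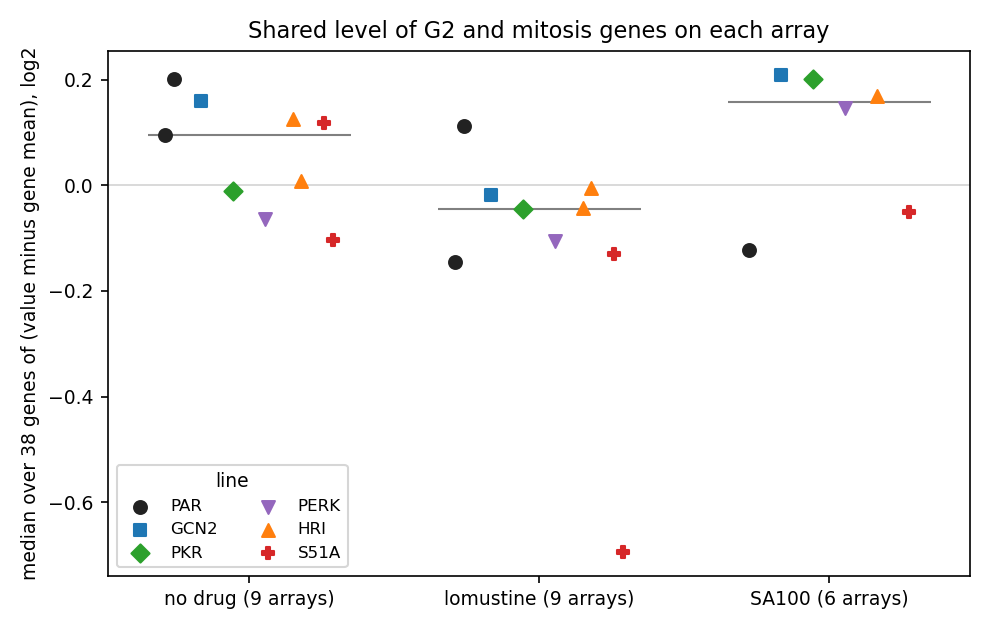
Shared level of the G2 and mitosis genes on each array: each point is 1 array, its height the median over 38 genes of the value minus the gene's mean (log2), with arms along the horizontal axis, lines by colour and marker, and the arm's median as a grey bar. The S51A lomustine array at -0.69 lies far below all others, which fall between -0.15 and 0.21.

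The genes also moved together from array to array beyond the shared effects of arm and line. After the arm and line terms were removed, the median Pearson correlation over the 703 pairs of members was 0.522 across the 24 arrays, and 0.371 without S51A lomustine B. Over all pairs of genes tested it was 0.049 and 0.034. Most pairs of line and arm had 1 array, so what remains also holds how the arms differ from line to line. These pairs of genes share the same arrays and their scaling, and the values are descriptions. DLGAP5, a spindle microtubule protein, had the highest median correlation with the other members (0.755), PLK4, the kinase of centriole duplication, had 0.715 and the spindle motor KIF11 0.709, whereas the near-floor UBE2C had -0.436. These values per gene use all 24 arrays and were not computed without S51A lomustine B. On that array DLGAP5, PLK4 and KIF11 were far below the other lomustine arrays, and UBE2C had its highest value (3.94).

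Lomustine was first compared with no drug across all 6 lines, to see whether a DNA-damaging drug had changed the mitotic transcripts within 2 h. None of the 38 genes passed the test (limma, adjusted p under 0.05 over all genes, which called 1.03% of the genes tested), and 15 had an unadjusted p under 0.05. Most changes were small and below 0: 35 of the 38 lay below 0 (92.1%, against 60.9% of all genes), with a median of -0.19 log2 against -0.04 over all genes. Without S51A lomustine B the members' median was -0.15, and after a further quantile normalization of the arrays -0.05. All 9 kinesins (median -0.29) and all 9 spindle assembly and cytokinesis genes (median -0.14) had changes below 0. These role counts include S51A lomustine B and were not shared by every line. By line means, KIF15 was higher with lomustine in 5 of 6 lines and lower in S51A (-0.64). In a fit of PAR, GCN2, PKR and PERK together, 8 of 9 kinesins (median -0.19) lay below 0. There 6 of 9 spindle assembly and cytokinesis genes (median -0.05) did so.

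ASPM, which organises spindle poles, had the smallest p. Its values ran from 7.35 through a median of 7.75 to 7.88 without drug and from 6.22 through 7.47 to 7.63 with lomustine. The arms overlapped, and the change was -0.44 (SE 0.122, adjusted p = 0.0942 in limma). KIF23, the kinesin of the central spindle, ran from 8.76 through 8.94 to 9.29 without drug and from 8.41 through 8.66 to 8.85 with lomustine. It was lower with lomustine in 6 of 6 lines, and the arms overlapped slightly, with a change of -0.30 (SE 0.0862, adjusted p = 0.0971 in limma). CCNA2, the cyclin of S and G2 phase, and KIF20A, a kinesin of cytokinesis, were also lower in 6 of 6 lines, with changes of -0.28 and -0.34 that did not pass. The same held for ANLN, BIRC5, CCNF, CDK1, CENPE, CENPF, CKAP2, KIF14, KIF4A and TOP2A, so it does not mark out single members.

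The 4 regulators at the centre of mitotic entry overlapped between both arms. CCNB1, the main mitotic cyclin, ran from 7.32 through a median of 7.64 to 7.91 without drug and from 6.91 through 7.40 to 7.55 with lomustine. CDK1, its kinase partner, ran from 6.80 through 7.01 to 7.35 without drug and from 6.45 through 6.90 to 7.31 with lomustine. For PLK1, the kinase that promotes mitotic entry and spindle assembly, the values were 9.36 to 9.69 (median 9.49) without drug and 8.96 to 9.44 (median 9.42) with lomustine. Each thus had a slightly lower median with lomustine. AURKA, the kinase of centrosomes and spindle poles, ran from 6.08 through 6.50 to 6.70 without drug and from 6.01 through 6.21 to 6.53 with lomustine. In limma the changes were -0.30 (SE 0.101, adjusted p = 0.175), -0.15 (SE 0.103, adjusted p = 0.538), -0.19 (SE 0.0783, adjusted p = 0.274) and -0.17 (SE 0.0892, adjusted p = 0.398) for CCNB1, CDK1, PLK1 and AURKA, none past the test. After a further quantile normalization the change of CDK1 was 0.02.

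Within single lines, lomustine against no drug gave no call among the 38 genes in PAR, S51A or HRI (limma with 6 residual degrees of freedom), where it called 0%, 0.0115% and 0% of all genes tested. The difference of the response from that of PAR gave none in S51A or HRI either, where 0 of all genes passed in both. In S51A every kinesin and every spindle assembly gene had a change below 0, with medians of -0.57 and -0.41. These values rest on the array lettered B: the median over all 38 genes was -0.19 without it and -0.70 without A.

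SA100 against no drug asked the same of arsenite. CENPF, a large protein of the outer kinetochore that builds up in G2, was the only member called, and it was lower. Its 9 values without drug ran from 7.57 through a median of 8.05 to 8.24, and the 6 SA100 values were 6.58 in PAR, 7.09 in GCN2, 6.93 in PKR, 7.16 in PERK, 7.67 in S51A and 8.03 in HRI. The first 4 lie below all arrays without drug, whereas the last 2 lie inside their range. The change over the 6 lines was -0.76 (SE 0.177, 95% interval -1.13 to -0.40, adjusted p = 0.0203 in limma), a level 1.70-fold lower. The test called 3.06% of all genes (0.952% lower), so 1 of 38 members is close to that background, and 12 members had an unadjusted p under 0.05. The call ended (adjusted p up to 0.0751) when the SA100 array of PAR, GCN2, PKR or PERK, or the untreated array of GCN2, PKR or PERK, was left out.

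The members did not share a direction under SA100: of the 38 changes, 19 lay above 0 and 19, CENPF among them, below, with a median of -0.0005 against 0.04 over all genes. After CENPF, the lowest values were those of the cytokinesis kinesin KIF14 (-0.59, adjusted p = 0.222 in limma) and of CENPE, the kinetochore motor (-0.42, 0.115), and neither passed. KIF2C, a microtubule-depolymerising kinesin at centromeres, had a value of 0.34 (adjusted p = 0.0854) and KIF18A, a kinesin that dampens chromosome movements, 0.42 (0.163), neither past the test. CCNB1, with 7.22 to 7.71 and a median of 7.61 under SA100, had a change of -0.02 (adjusted p = 0.951), and this was 0.09 without the PAR line and 0.02 without the S51A line. CDK1, with 6.92 to 7.53 and a median of 7.25, had a change of 0.17 (0.490), and AURKA, with 6.33 to 6.74 and a median of 6.54, one of 0.15 (0.485). PLK1, with 9.08 to 9.38 and a median of 9.23, was lower under SA100 in 6 of 6 lines, but its change of -0.29 (SE 0.0883, adjusted p = 0.0835 in limma) did not pass. A further quantile normalization called 4 members (CENPF and CENPE lower, KIF18A and CDC25C, the phosphatase that activates CDK1, higher), and centring each array on its median called CENPF and PLK1, both lower. Over all genes, 68.9% of the calls were higher in the main fit, 49.3% after quantile normalization and 45.6% after centring.

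**Figure D2:**
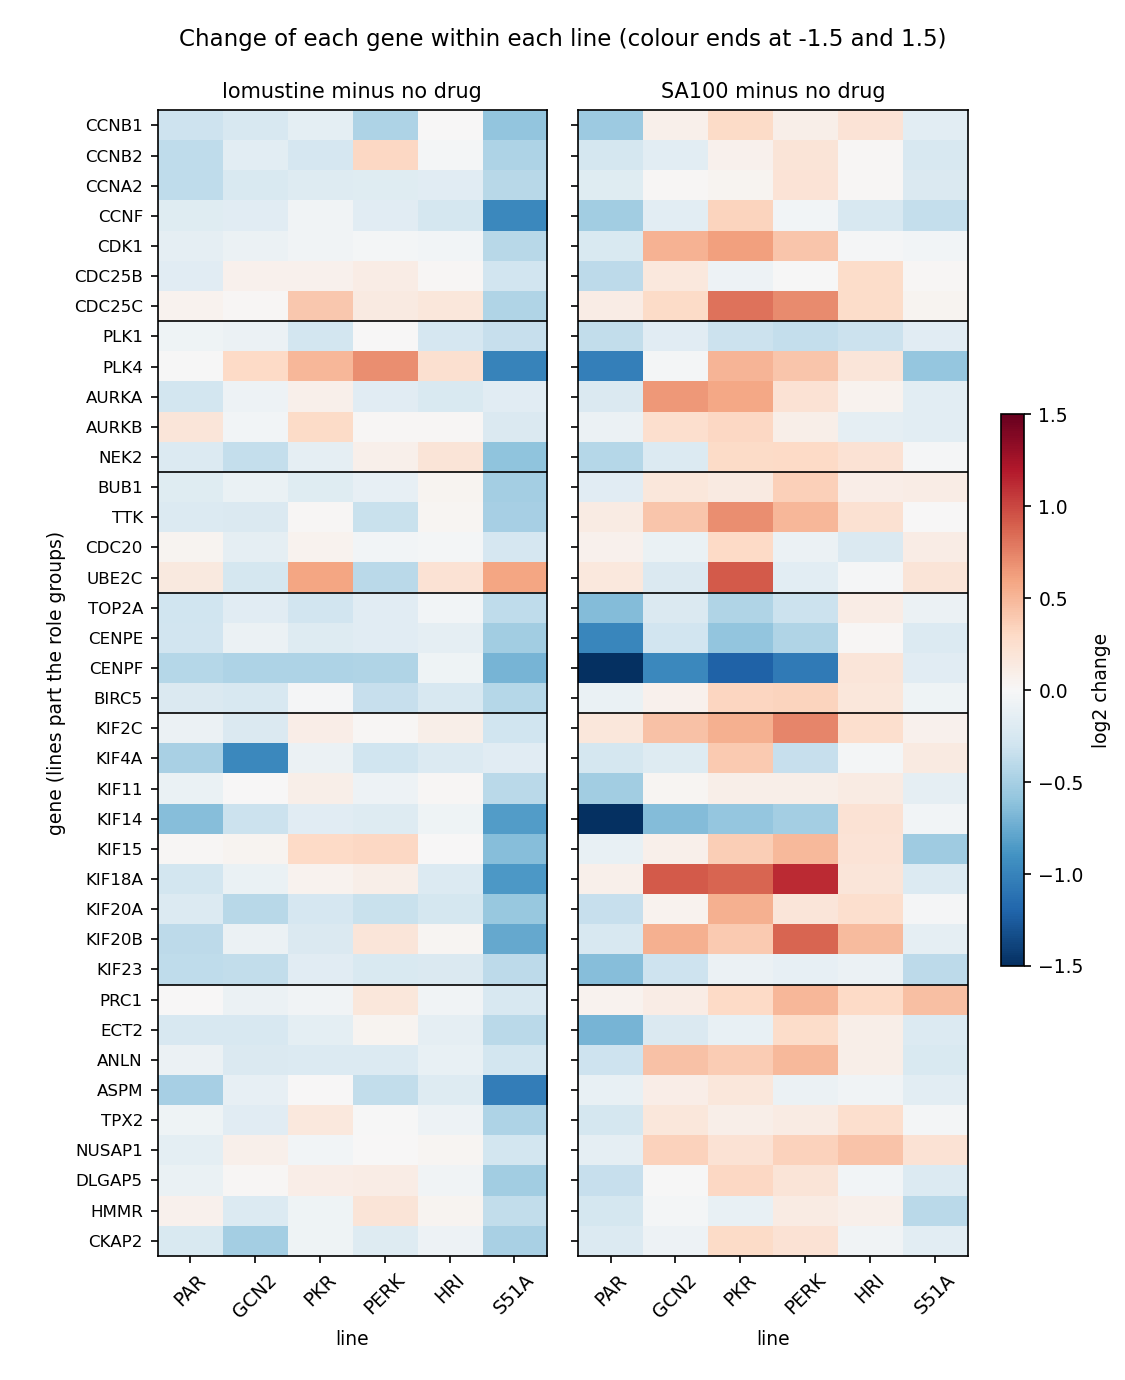
Log2 change of each of the 38 genes within each line, lomustine minus no drug at left and SA100 minus no drug at right, with genes in rows ordered by role (black lines part the 6 role groups), lines in columns and colour from -1.5 (blue) to 1.5 (red). CENPF and KIF14 are blue under SA100 in PAR, GCN2, PKR and PERK and not in HRI, KIF18A is red in GCN2, PKR and PERK, and the S51A column is blue in nearly every row under lomustine.

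The split of CENPF between lines was then taken up directly. This comparison of PAR, GCN2, PKR and PERK with S51A and HRI was added after the values were seen, and as background, S51A lacks the serine that the kinases phosphorylate and HRI lacks the kinase known to respond to arsenite. In PAR, GCN2, PKR and PERK together, CENPF fell by 1.21 under SA100 (SE 0.149, 95% interval -1.52 to -0.90, adjusted p = 6.05e-05 in limma), to a level 2.31-fold lower, and KIF18A rose by 0.70 (SE 0.181, adjusted p = 0.0452). The test called 0.929% of all genes lower and 1.59% higher there (2.51% in all), and 1 member in each direction. In S51A and HRI no member passed, where 0.386% of all genes were called, and 1 member had an unadjusted p under 0.05. The change of CENPF there was 0.01 and that of KIF18A -0.01. By line, KIF18A changed by 0.08 in PAR, 0.92 in GCN2, 0.87 in PKR and 1.12 in PERK. Its change was 0.18 in HRI and -0.21 in S51A, so PAR lay below HRI and KIF18A did not part by these groups. The test of the difference itself gave 1.21 for CENPF (SE 0.242, unadjusted p = 7.53e-05), with an adjusted p of 0.119, and -0.71 for KIF18A (SE 0.294, adjusted p = 1), so neither difference passed over all genes, of which 0.0461% did.

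Under lomustine no member passed in PAR, GCN2, PKR and PERK together (0.369% of all genes called). None passed in S51A and HRI together (0.0692%) or for the difference between the line groups (0%). CENPF, like KIF23, CCNA2, KIF20A and the other members named with them above, was nevertheless lower with lomustine than without drug in 6 of 6 lines. Its changes were -0.43 in PAR, -0.46 in GCN2, -0.46 in PKR, -0.45 in PERK, -0.69 in S51A and -0.06 in HRI. The line groups were chosen after the CENPF values were seen, so its p-values in these groups reuse those values and are no separate support. CENPF was called under SA100 in the first 4 lines with each of the 24 arrays left out in turn, at adjusted p up to 0.000832. Its difference between the line groups passed in 2 of the 24 fits with 1 array left out and in 2 of 7 other settings: after quantile normalization (adjusted p = 0.00692), without S51A lomustine B (0.0261), without the S51A array A without drug (0.0259) and without both S51A lomustine B and PAR lomustine A (0.0199). It was at 1 without the HRI SA100 array and at 0.729 without that of S51A, each of which leaves 1 SA100 array in that group. The call of KIF18A in the 4 lines held in 7 of the 24 fits that each left out 1 array. It was lost after centring each array on its median, where CENPF and TOP2A were the members called.

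KIF14, CENPE and TOP2A had the next smallest p in PAR, GCN2, PKR and PERK and did not pass. KIF14 was at 5.59 in PAR, 6.65 in GCN2, 6.61 in PKR and 6.85 in PERK under SA100, against 6.92 in S51A and 7.47 in HRI, with 6.79 to 7.59 on the arrays without drug. CENPE was at 6.91, 7.57, 7.41 and 7.58 in the same 4 lines, against 7.32 in S51A and 7.73 in HRI, with 7.40 to 8.07 without drug. TOP2A, the topoisomerase that untangles DNA, was at 8.99, 9.45, 9.28 and 9.42, against 9.36 and 9.63, with 9.35 to 9.77 without drug. The PAR array was the lowest of the SA100 arm in each and lay below all arrays without drug, as did the GCN2 and PKR arrays for KIF14, the S51A array for CENPE and the PKR array for TOP2A. All other SA100 arrays lay inside the untreated range. The SA100 levels of CENPE and TOP2A, not set against each line's own untreated level, did not part by line as those of CENPF did. S51A lay below GCN2 and PERK for both, and for CENPE below PKR too. Their changes in PAR, GCN2, PKR and PERK were -0.97 (SE 0.280, adjusted p = 0.0768 in limma) for KIF14, -0.61 (SE 0.165, 0.0579) for CENPE and -0.43 (SE 0.115, 0.0547) for TOP2A, and in S51A and HRI 0.09, -0.09 and 0.01. The difference between the line groups had an adjusted p of 1 for each. All 3 passed in the 4 lines after quantile normalization, and also without S51A lomustine B. Against each line's own untreated level, CENPE changed by -0.98 in PAR, -0.29 in GCN2, -0.60 in PKR and -0.45 in PERK. It changed by -0.21 in S51A and 0.02 in HRI. TOP2A changed by -0.65, -0.22, -0.45 and -0.32 in the same 4 lines, against -0.09 and 0.11. Unlike the levels, these changes did part by the line groups, but narrowly, and each rests on 1 SA100 array. The nearest lines were GCN2 and S51A, at -0.29 and -0.21 for CENPE and -0.22 and -0.09 for TOP2A. The SD between lettered duplicates was 0.32 for CENPE and 0.15 for TOP2A.

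**Figure D3:**
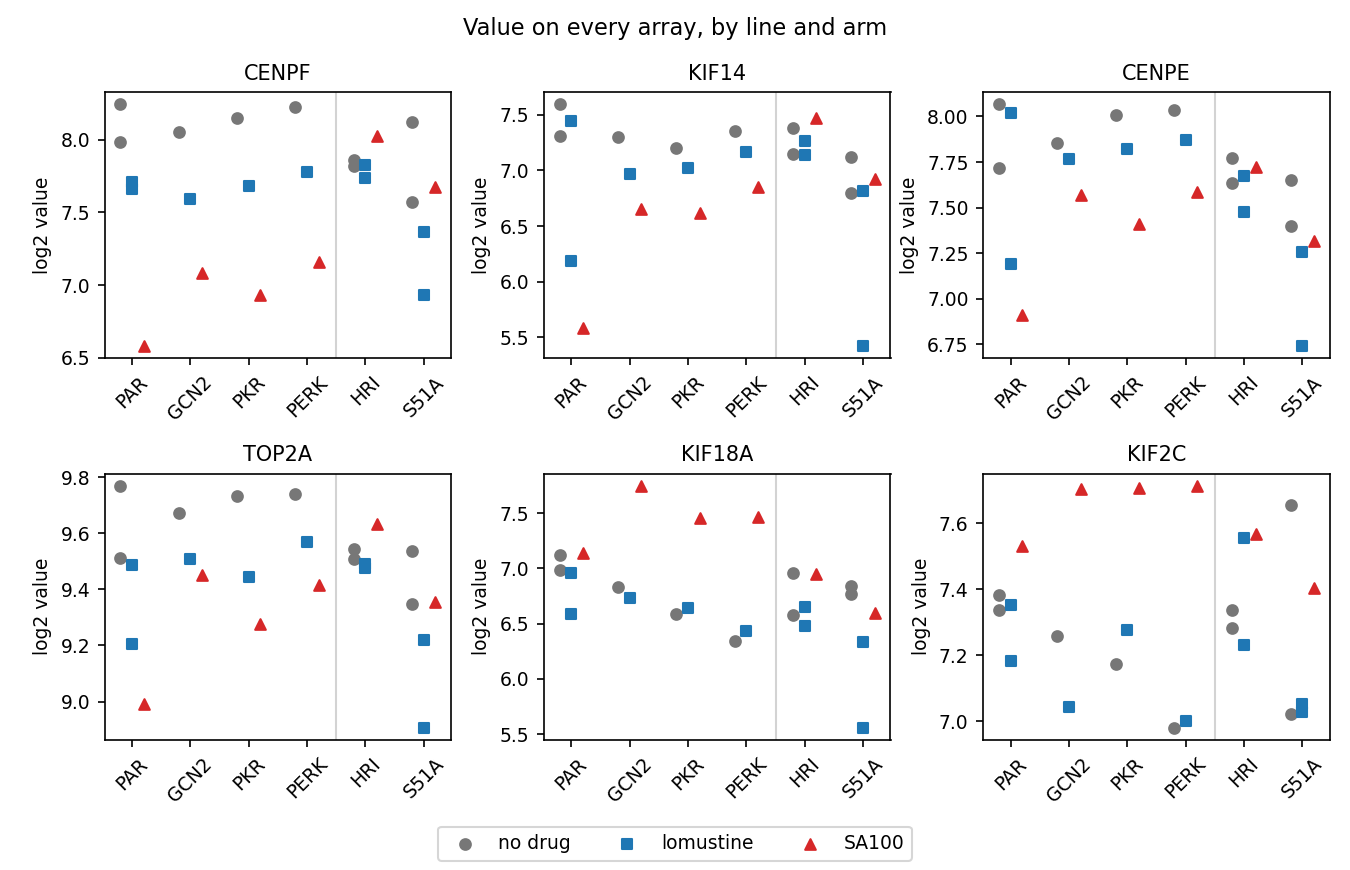
Log2 value of 6 genes on every array, with the line along the horizontal axis, 1 point per array, grey circles for no drug, blue squares for lomustine and red triangles for SA100. Left of the grey line (PAR, GCN2, PKR, PERK) the SA100 points of CENPF lie between 6.58 and 7.16, below every untreated point, and right of it (HRI, S51A) at 8.03 and 7.67, within the untreated range.

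The comparison of SA100 with lomustine set the 2 treatments side by side and shares its arrays with both comparisons above. Here 6 of the 38 members were called, all higher with SA100 (15.8%, where the test called 5.48% of all genes higher and 5.95% in all), and 18 had an unadjusted p under 0.05. The median change was 0.18 against 0.08 over all genes, and 29 members lay above 0 (76.3%, against 67.2% of all genes). Most calls of the whole array ran the same way: 92.1% of them were higher with SA100, but 58.2% after quantile normalization and 74.9% after centring arrays on their medians. The members called numbered 3 after quantile normalization (KIF18A, TTK and the kinesin KIF20B) and 0 after centring, where the adjusted p was 0.051 for KIF18A and 0.0631 for TTK. Without S51A lomustine B they numbered 7, which were these 6 and AURKA.

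KIF18A ran from 5.56 through a median of 6.59 to 6.96 with lomustine, and its SA100 values were 7.13 in PAR, 6.59 in S51A, 6.95 in HRI, 7.75 in GCN2, 7.45 in PKR and 7.46 in PERK. It was higher with SA100 in 6 of 6 lines, though S51A and HRI lay inside the lomustine range, and rose by 0.71 (SE 0.156, 1.64-fold, adjusted p = 0.00971 in limma). TTK, the kinase that starts the spindle checkpoint, ran from 6.38 through 6.86 to 7.24 with lomustine and was at 7.30 in PAR, 7.05 in S51A, 7.38 in HRI, 7.49 in GCN2, 7.48 in PKR and 7.41 in PERK with SA100. All of these but S51A lay above the lomustine range, and the rise was 0.52 (SE 0.111, 1.43-fold, adjusted p = 0.00893 in limma). Both genes kept their call with each of the 24 arrays left out in turn.

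KIF20A ran from 7.90 through 8.09 to 8.46 with lomustine and from 8.20 through 8.54 to 8.75 with SA100, and was higher with SA100 in 5 of 6 lines, by 0.44 (SE 0.111, adjusted p = 0.0224 in limma). KIF2C ran from 7.002 through 7.18 to 7.56 with lomustine and from 7.40 through 7.63 to 7.71 with SA100, a rise of 0.42 (SE 0.106, adjusted p = 0.0209). Both pairs of ranges overlapped. BIRC5, or survivin, a subunit of the chromosomal passenger complex, lay between 6.66 and 7.23 (median 6.96) with lomustine and between 7.23 and 7.40 (median 7.28) with SA100, so the ranges met at their edge, and rose by 0.37 (SE 0.0954, adjusted p = 0.0251 in limma). PRC1, which bundles the microtubules of the central spindle, lay between 6.96 and 7.94 (median 7.70) with lomustine and between 7.85 and 8.05 (median 7.96) with SA100, and rose by 0.34 (SE 0.0963, adjusted p = 0.0412). With 1 array left out in turn, the calls held in 20 of 24 fits for KIF20A and KIF2C, 19 for BIRC5 and 12 for PRC1. The number of members called ran from 2, without the SA100 array of GCN2, PKR or PERK, through 3 without that of HRI, to 11, without that of PAR.

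By role, the calls with SA100 over lomustine comprised 3 of 9 kinesins, 1 of 4 checkpoint and anaphase-promoting complex genes (TTK), 1 of 4 chromosome and kinetochore genes (BIRC5) and 1 of 9 spindle assembly and cytokinesis genes (PRC1). The test called 5.48% of all genes higher, the groups are small, and none of these calls held after centring arrays on their medians. All 7 cyclins, CDK1 and its phosphatases had values above 0 (median 0.25), as did 67.2% of all genes, and none of the 7 passed. CDK1 had a difference of 0.32 (SE 0.116, adjusted p = 0.102 in limma), AURKA 0.32 (SE 0.101, 0.0599), CCNB1 0.27 (SE 0.114, 0.163) and PLK1 -0.10 (SE 0.0883, 0.545). CENPF (-0.35), KIF14 (-0.17) and CENPE (-0.16) were the members with the lowest values, together with PLK4 (-0.17), and did not pass.

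**Figure D4:**
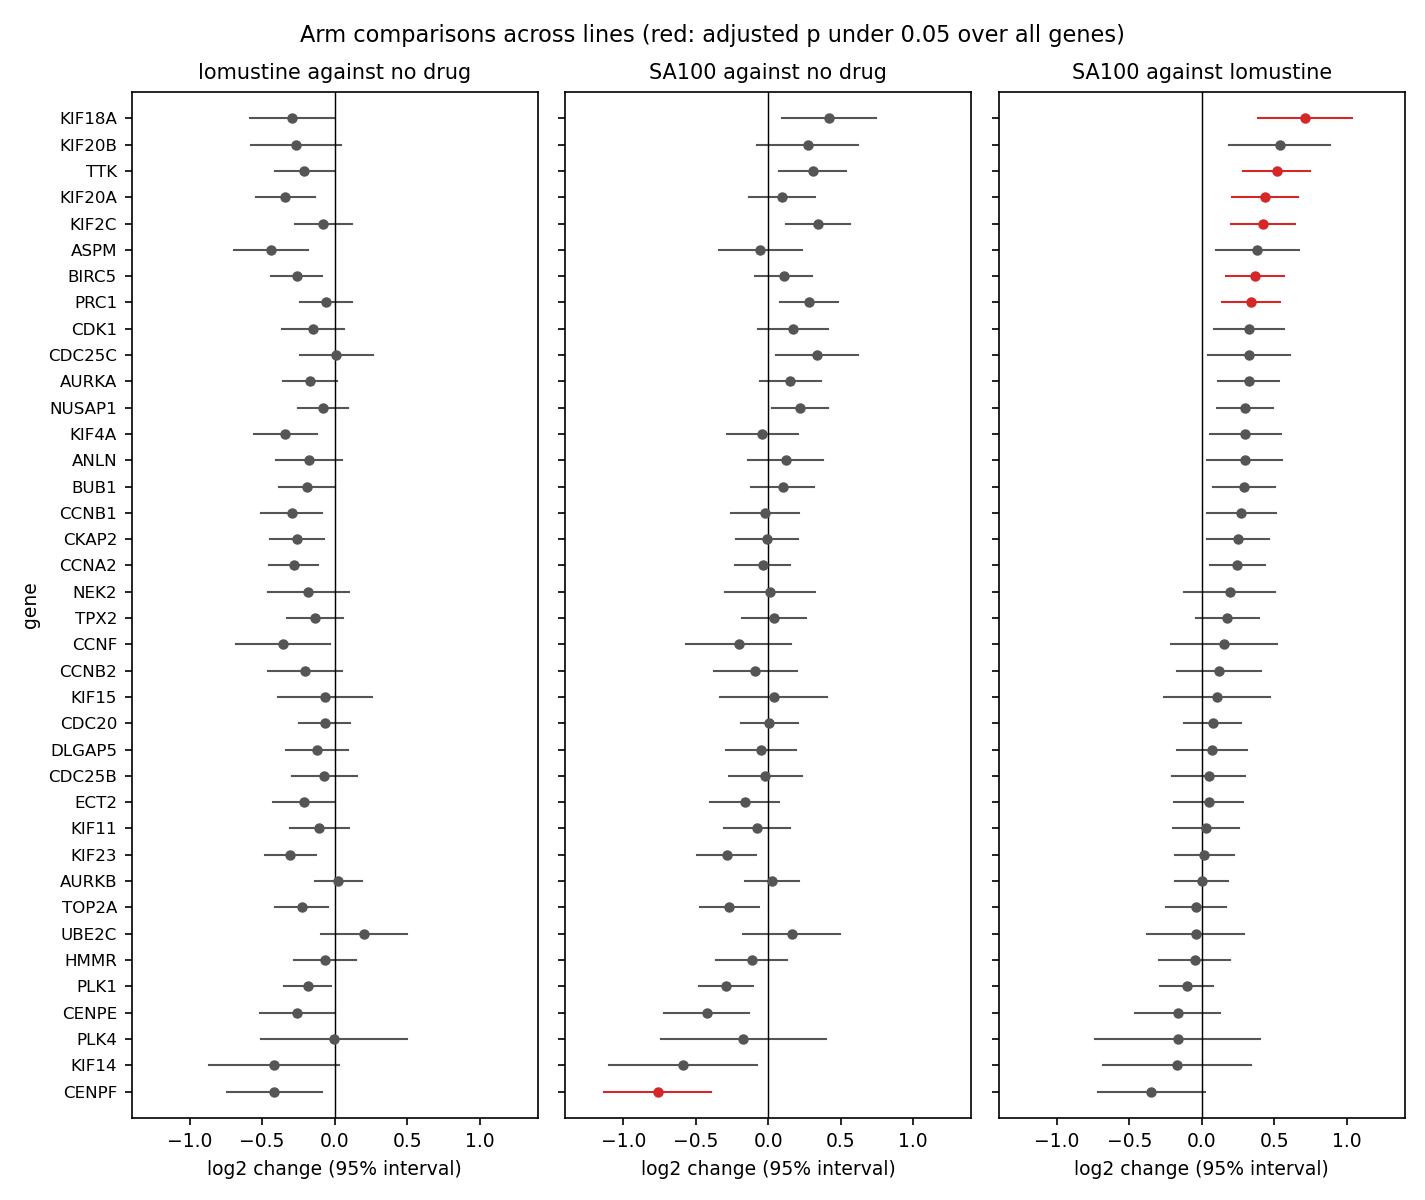
Log2 change of each of the 38 genes (rows, ordered by SA100 against lomustine) in the 3 comparisons of arms across lines, with the 95% interval of the limma fit, red where the adjusted p over all genes is under 0.05. No interval is red for lomustine against no drug, CENPF alone (-0.76) is red for SA100 against no drug, and KIF18A, TTK, KIF20A, KIF2C, BIRC5 and PRC1 are red, all above 0, for SA100 against lomustine.

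Other genes of the same processes were read from further lists. Against no drug, lomustine lowered 1 of them, FBXO5, an inhibitor of the anaphase-promoting complex (1 of 21 in that list, where 1.03% of all genes were called), with a change of -0.45 (SE 0.0963, adjusted p = 0.0220 in limma). With SA100, GADD45A, a stress-induced inhibitor of CDK1 (1.18, adjusted p = 4.32e-05), LIN37, a MuvB subunit (0.96, 0.00147), and FAM83D, a spindle protein (0.75, 0.00223), rose against no drug, each the only call among 13, 12 and 19 tested genes of its list, where 3.06% of all genes were called. FOXM1 and MYBL2, the activators themselves, had changes of -0.15 and 0.05 under SA100 and -0.02 and -0.13 under lomustine, and none passed.

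In the comparison of SA100 with lomustine, where 5.48% of all genes were higher, 7 of 23 other kinetochore, passenger complex and centromere genes were higher, among them SKA1 (0.88, adjusted p = 0.0119 in limma), NDC80 (0.79, 0.0335) and CENPI (0.66, 0.00542). The spindle list had 4 of 19, led by FAM83D (0.94, 0.000262), CKAP2L (0.63, 0.0175) and KIFC1 (0.62, 0.000757). The entry and checkpoint list had 2 of 13 (GADD45A and WEE1, the kinase that holds CDK1 inactive), the anaphase-promoting complex list 2 of 21 (UBE2S and BUB3) and the transcription regulators 1 of 12 (LIN37). Condensin and cohesin (0 of 12) and the S phase list (0 of 23) had none, with the smallest adjusted p for NCAPH (0.0874) and MCM5 (0.0544), and medians of 0.07 and 0.02. The kinetochore list had a median of 0.27, against 0.08 over all genes. How far the calls of these further lists hold under other scalings or with arrays left out was not tested. For the members, the calls in this comparison fell from 6 to 3 after quantile normalization and to 0 after centring. In PAR, GCN2, PKR and PERK, where SA100 against no drug called 1.59% of all genes higher and 0.929% lower, 1 gene was higher in each of 4 lists: GADD45A (1.33, adjusted p = 0.000296 in limma), LIN37 (1.13, 0.00121), FAM83D (0.77, 0.0240) and HJURP, the loader of the centromeric histone (0.44, 0.0362). In the same lines SMC3, a cohesin subunit (-0.80, adjusted p = 0.00258 in limma), ARHGAP11A (-0.67, 0.0224) and CKAP5, a microtubule polymerase (-0.48, 0.0219), fell with SA100 against no drug.

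Differences between lines over all arms were few. No member passed the test of any difference among the 6 lines (3.59% of all genes did), and the smallest adjusted p was 0.129, for KIF4A, a chromosome-bound kinesin. S51A against PAR called 1 member lower, PRC1, where 0.894% of all genes were called lower and 2.18% in all, and 8 members had an unadjusted p under 0.05. Its values in S51A were 7.47 and 7.32 without drug, 7.35 and 6.96 with lomustine and 7.85 with SA100, and in PAR 7.72 and 7.91, 7.70 and 7.94, and 7.87. S51A was lower than PAR in the first 2 arms and level with it under SA100, and the fitted change was -0.44 (SE 0.115, adjusted p = 0.0466 in limma). The call held in 5 of the 24 fits that each left out 1 array, and not without S51A lomustine B. Over the members, 34 of 38 changes were below 0 in S51A, with a median of -0.21 against -0.02 over all genes, and -0.09 without that array.

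HRI, GCN2, PKR and PERK against PAR called no member, where 0.144%, 0.0692%, 0% and 0.179% of all genes were called. KIF4A had the smallest p in HRI, with values of 7.81 and 7.82 without drug, 7.54 and 7.67 with lomustine and 7.78 with SA100, against 7.29 and 7.45, 6.58 and 7.19, and 7.10 in PAR. All HRI values thus exceeded all PAR values, by a fitted 0.60 (SE 0.139) that did not pass over all genes (adjusted p = 0.0821 in limma). Of the further lists, SGO1, the protector of centromeric cohesion, was higher in HRI than in PAR (1.02, adjusted p = 0.00571), and SMC1A, a cohesin subunit, was higher in S51A (0.54, 0.0101).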

How the data were processed

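The deposited values are log2 intensities of 53617 Affymetrix probe sets, which the authors made with RMA and the R package affy, per the submitters' processing notes; versions, filters and build are not given in the sources used here. Probe sets were joined to symbols through the array's annotation, and the 23558 with 1 symbol were kept, 1 per gene by highest mean. A gene was tested if at least 2 arrays reached the median of all values. Arrays give no depth, and their number limits precision.

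Tests used limma 3.58.1 in R 4.3.3, two-sided, with Benjamini-Hochberg adjustment over 17339 genes and a threshold of 0.05. Arm and line comparisons came from an additive fit of both terms over 24 arrays (16 residual degrees of freedom). Comparisons within lines came from a fit of group means (6 degrees), where an unduplicated array is taken to vary as the duplicated ones do. The comparison added later came from a fit of line terms with separate arm effects for 2 groups of lines (14 degrees). The fit was tested on simulated data. The members and lists were chosen with earlier results of these data known.

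Values on every array or per arm are given for members past the test in a comparison (at most 6 a direction) or else the 2 with the smallest p, and always for CCNB1, CDK1, PLK1 and AURKA; KIF14, CENPE and TOP2A were added after their values were seen. From other lists, up to 3 genes past the test, or that with the smallest p, are named; FOXM1, MYBL2 and further genes were added afterwards. Alternatives were other filters, scalings and priors, single arrays and lines left out, and blocks for the letter. They were read for the members and as summaries over all genes, not for the genes of the other lists.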

Additional observations from a re-analysis of the deposited data

Results flagged for a closer look

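Each gene and the shared level were examined in each arm (9, 9 and 6 arrays), 117 groups of values in all. Of these, 15 held an array that stood apart from the rest of its arm by Dixon's criterion, where chance gives about 1 in 20. The groups share arrays and hold correlated genes, so they are not separate tests. In 14 of the 15 the array that stood apart was S51A lomustine B. There the shared level of the G2 and mitosis genes was -0.69, and the log2 values of CCNF (5.84), CDC25B (4.57), CDC25C (4.87), PLK4 (4.15), NEK2 (4.21), BUB1 (7.25), KIF11 (8.02), KIF18A (5.56), KIF20B (5.71), ECT2 (7.59), ASPM (6.22), TPX2 (8.38) and DLGAP5 (7.16) were far below the other 8 lomustine arrays. The last was UBE2C on the SA100 array of PKR (3.26), a gene near the floor of the array.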

How the results depend on the processing

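Counts of members past the test moved with scaling and with single arrays or lines. For SA100 against no drug (1 member), the count was 4 after quantile normalization, 2 after centring, 2 with a trended prior, 4 without PAR lomustine A and S51A lomustine B, 3 without the S51A line, 0 without the PAR, GCN2, PKR or PERK line, 0 with only those 2 arms, and 0 to 2 with 1 array left out. For SA100 against lomustine (6), it was 3, 0, 3 without the HRI line, 2 without GCN2 or PKR, 1 without PERK, 2 with only those arms, and 2 to 11 with 1 array left out. For S51A against PAR (1), it was 0 with a stricter filter, 2 after quantile normalization, 0 without both arrays and 0 to 1 with 1 array left out. Any line difference gave 1 after quantile normalization. SA100 in PAR, GCN2, PKR and PERK (2) gave 4 with a stricter filter, 7 after quantile normalization and 4 with a trended prior. It gave 6 without both arrays and 1 to 5 with 1 array left out. After centring it gave 2, CENPF and TOP2A, and KIF18A was not called. The difference between line groups (0) gave 1 after quantile normalization, 1 without both arrays and 0 to 1 with 1 array left out. Lomustine against no drug ran from 0 to 1 and within S51A from 0 to 7, with the 7 without S51A lomustine A.

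Signs turned for CDK1 with lomustine (0.018 after quantile normalization), CCNB1 with SA100 (0.093 without the PAR line, 0.016 without S51A, -0.063 to 0.091 with 1 array left out), and in S51A and HRI under SA100 for CENPF (-0.083), TOP2A (-0.079) and KIF14 (-0.0005) after centring. With 1 array left out those ran from -0.064 to 0.18, from -0.030 to 0.079 and from -0.026 to 0.22, and KIF18A from -0.15 to 0.063. The cause of these shifts was not tested.

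The letters did not relate the arrays alike in all lines. The A minus B differences without drug and with lomustine correlated over genes at 0.334 in PAR, -0.388 in S51A and -0.561 in HRI. Whether arrays were paired across arms cannot be told from these values. With the letter as a block on the 12 lettered arrays, 0 members passed for lomustine against no drug and 0 for S51A against PAR, as without the block on those arrays (10 and 13 of all genes for lomustine, 152 and 178 for S51A). Crossed letters in S51A and HRI gave 0 members and 19 of all genes for lomustine.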
